A study of Mus musculus with 4 samples.

Results

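Oxidative phosphorylation subunit genes were examined in livers of wild-type (WT) mice and of mice with a liver-specific Baf60a knockout (Baf60a LKO). The genes were taken by name, as nuclear genes whose symbol starts with Ndufa, Ndufb, Ndufs, Ndufv, Sdhb, Sdhd, Uqcr, Cox4i, Cox5, Cox6, Cox7, Cox8 or Atp5, each represented by its brightest probe set, and this set was picked with earlier results of these data known. The prefixes took 86 of the 18193 genes on the array. Of these, 75 encode subunits of the complexes, 32 of complex I, 2 of complex II, 8 of complex III, 16 of complex IV and 17 of complex V. Another 8 are complex I assembly factors (Ndufaf genes), and 3 were set apart: Ndufa4, its paralog Ndufa4l2, and the supercomplex factor Cox7a2l.

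Both genotypes were on the C57BL/6 background, ate a high-fat diet for 10 weeks from 6 weeks of age, and were starved overnight before the liver was taken. Each genotype had 2 Affymetrix Mouse Genome 430 2.0 arrays, each with an independent pool of liver RNA. The mice per pool, their sex and the Cre driver of the deletion are not given in the sources used here. The p-values and standard errors rest on the spread between pools, not between mice. The test (limma) moderates each gene's variance toward that of all genes, so a standard error can exceed the gene's own spread. Every value below is a log2 RMA signal or a difference of such signals, Baf60a LKO minus WT, with its standard error (SE). Baf60a is encoded by Smarcd1 and belongs to the SWI/SNF complexes, which remodel chromatin. Its signal was 5.62 and 5.88 in WT and 5.34 and 5.30 in Baf60a LKO, lower on both LKO arrays, with a difference of -0.43 ± 0.14 that did not pass the test (limma, Benjamini-Hochberg adjusted p = 0.410).

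Oxidative phosphorylation is the final stage of fuel oxidation in mitochondria. Complexes I and II pass electrons from NADH and succinate to ubiquinone, complex III passes them to cytochrome c, and complex IV passes them to oxygen. Complexes I, III and IV pump protons across the inner membrane, and complex V, the ATP synthase, uses the return flow to make ATP. The liver relies on this system to burn fatty acids and to power gluconeogenesis during fasting, and some complex IV subunits exist as a general isoform beside forms restricted to muscle or testis.

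The arrays were alike in overall signal, with medians of 4.19 to 4.27 over probe sets. Bacterial control probe sets, which gauge the background, had 95th percentiles of 2.63 to 2.86. Between replicate arrays the members' differences had an SD of 0.145 in WT and 0.0965 in Baf60a LKO, against 0.321 and 0.20 over all genes. The summed signal of 10 hepatocyte markers was 16.42 to 16.47 in WT and 16.50 to 16.53 in LKO, and none of the 10 passed the test. Their differences ranged from -0.34 (Tat) to 0.31 (Pck1).

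Of the 86 members 1 passed the test. Cox6b2, which encodes the testis form of complex IV subunit 6B, rose 3.20-fold. The other 85 did not pass the threshold (limma over all 18193 genes, Benjamini-Hochberg adjusted p under 0.05), and none fell. Over all genes the same test called 88 (0.484%), 43 higher (0.236%) and 45 lower (0.247%). The median difference of the 86 members was 0.02, with quartiles of -0.05 and 0.08, beside a median of 0.00 and quartiles of -0.14 and 0.14 over all genes. Their median absolute difference was 0.07, beside 0.14 over all genes.

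The count of differences by sign was close to even, 48 positive and 38 negative. Both LKO arrays lay above both WT arrays for 25 members (all genes: 22.8%) and below them for 18 (all genes: 19.6%). An unadjusted p under 0.05 was reached by 4 members (all genes: 10.2%). Absolute differences above 0.2 were found for 9 members (all genes: 35.5%), and above 0.5 for 2, Cox6b2 and Cox7a1 (all genes: 5.47%). For 74 members the 95% confidence interval of the difference lay within 0.5 on either side of 0, and for 85 within 1.

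The members were mostly bright: 65 had a mean signal of 10 or above (75.6%), as did 1144 of all genes (6.29%). All 9 members with an absolute difference above 0.2 were among the 21 dimmer ones. The 65 bright members ranged from -0.17 to 0.18. Of the 1144 bright genes, 274 exceeded 0.2 in either direction. Of the members' 167 probe sets, used or not, 102 had a mean of 10 or above, and all 102 lay between -0.17 and 0.20. These include the probe sets that represent the 65 bright members. Dimmer probe sets not used for a gene spread more widely, from -0.40 (Ndufa3) to 0.50 (Cox7c). For 47 members with several probe sets, 27 had all of them on 1 side of 0.

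**Figure D1:**
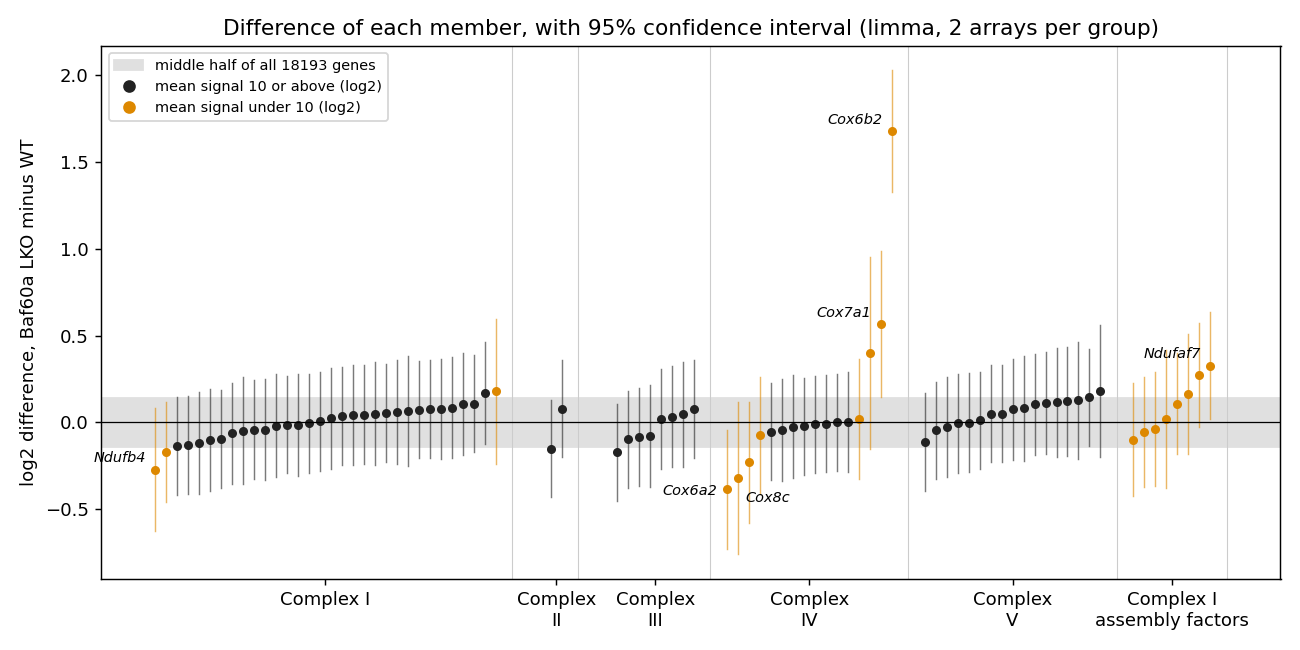
Log2 difference (Baf60a LKO minus WT, vertical axis) of 83 members grouped by complex and ordered by value; points are limma estimates, lines their 95% confidence intervals, and the grey band the quartile range of all genes (-0.14 to 0.14). Black points, with a mean signal of 10 or above, stay between -0.17 and 0.18, and Cox6b2 stands alone at 1.68; Ndufa4, Ndufa4l2 and Cox7a2l are not drawn.

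Complex IV held both the largest difference and the smallest ones. Its 16 genes had a median of -0.02, which became 0.01 when array medians were subtracted. Cox6b2 gave 4.06 and 4.11 on the WT arrays and 5.90 and 5.62 on the LKO arrays. The groups were far apart relative to the replicates, with a difference of 1.68 ± 0.14 (95% confidence interval 1.33 to 2.03; limma, Benjamini-Hochberg adjusted p = 0.0181). The gene has 1 probe set. Leaving out any of the 4 arrays kept the difference between 1.54 and 1.82, but the adjusted p rose to 0.214 without WT replicate 1, 0.114 without WT replicate 2, 0.229 without LKO replicate 1 and 0.159 without LKO replicate 2. The general isoform, Cox6b1, was level: 12.37 and 12.38 in WT, 12.38 and 12.37 in LKO, a difference of 0.0002 ± 0.11.

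Markers of bile duct cells were higher on the same arrays as Cox6b2. The 6 cholangiocyte markers (Krt19, Krt7, Epcam, Sox9, Pkhd1 and Cldn7) summed to 6.72 to 7.04 in WT and 7.55 to 8.01 in LKO. All 6 had both LKO arrays above both WT arrays (all genes: 22.8%), by 0.38 to 1.34, and none passed the test. Their part in the Cox6b2 result was not tested. In bulk tissue a change in the share of a cell type and a change in RNA per cell cannot be told apart. The sums of other marker lists were 6.90 to 7.08 in WT and 6.87 to 6.88 in LKO for 10 muscle genes, and 5.30 to 5.41 and 5.05 to 5.12 for 4 kidney genes. They were 12.1 to 12.3 and 12.1 to 12.2 for 6 macrophage genes, and 9.35 to 9.36 and 9.43 to 9.48 for 3 red cell genes, with none called in these 4 lists. The muscle genes were dim, with mean signals of 2.16 to 4.60. Of the kidney genes, Umod (2.1), Slc34a1 (2.8) and Slc12a1 (2.9) lay near the bacterial controls, and Kap (4.2) differed by -0.41. The red cell sum is mostly that of Alas2 (difference 0.11), while Slc4a1 differed by -0.36 and Hba-a1 by 0.0028. Of 7 adipocyte and brown fat markers, 1 fell, Cidea, a lipid droplet protein, by 1.37 ± 0.12 (limma, Benjamini-Hochberg adjusted p = 0.0220), but its adjusted p was 0.114 to 0.354 when any 1 of the 4 arrays was left out. The differences of 6 of these 7 markers were negative, with a list median of -0.31. The summed signal, 9.60 to 9.68 in WT and 9.62 to 9.76 in LKO, is mostly that of Ppp1r3c, the 1 marker with a positive difference (0.23).

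Genes beside Cox6b2 on the chromosome, looked up after its value was seen, had smaller differences. In the RefSeq gene order the 3 measured neighbours on one side were Brsk1 (difference -0.07), Tmem150b (-0.12) and Kmt5c (0.13), and the 2 measured on the other were Il11 (-0.23) and Tmem190 (-0.34). All 5 confidence intervals included 0.

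The start-site windows of Cox6b2, of its general partner Cox6b1 and of a second general complex IV gene, Cox6a1, are shown as the called gene beside uncalled genes of the same complex. Each is the RefSeq window of GRCm38.p6 from 250 bases before to 50 after the transcription start, read 5′ to 3′ on the minus strand. Capitals mark any match to 5 motifs: NRF1 (GCGCANGCG), the ETS family that includes GABPA (CCGGAAG), YY1 (AANATGGCG), the estrogen-related receptors (TNAAGGTCA) and the CCAAT box (CCAAT), searched on both strands, with overlapping matches counted separately. The windows lie at chr7:4753045-4753344 (Cox6b2), chr7:30626065-30626364 (Cox6b1) and chr5:115348909-115349208 (Cox6a1).
Cox6b2: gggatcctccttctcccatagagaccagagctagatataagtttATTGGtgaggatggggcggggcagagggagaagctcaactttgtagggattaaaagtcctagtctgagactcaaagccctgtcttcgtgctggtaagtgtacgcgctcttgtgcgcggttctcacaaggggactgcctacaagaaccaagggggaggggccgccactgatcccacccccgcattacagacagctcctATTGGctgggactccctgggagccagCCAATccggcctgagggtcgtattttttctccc
Cox6b1: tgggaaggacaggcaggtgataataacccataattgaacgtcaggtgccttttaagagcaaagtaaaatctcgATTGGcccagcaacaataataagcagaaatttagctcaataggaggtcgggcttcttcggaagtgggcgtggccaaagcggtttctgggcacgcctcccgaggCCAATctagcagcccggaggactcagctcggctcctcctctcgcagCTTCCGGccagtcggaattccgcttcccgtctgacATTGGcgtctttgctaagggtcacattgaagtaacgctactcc
Cox6a1: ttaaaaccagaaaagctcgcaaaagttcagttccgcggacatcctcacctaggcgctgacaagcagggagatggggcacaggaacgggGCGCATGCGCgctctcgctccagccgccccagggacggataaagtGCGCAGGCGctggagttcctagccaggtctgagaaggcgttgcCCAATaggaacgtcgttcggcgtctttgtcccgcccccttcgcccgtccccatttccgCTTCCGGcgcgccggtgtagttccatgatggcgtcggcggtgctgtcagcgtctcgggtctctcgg
The Cox6b2 window held 10 CG dinucleotides and 3 CCAAT boxes, and no match to the other 4 motifs. The Cox6b1 window held 17 CG dinucleotides, 1 ETS match and 3 CCAAT boxes. The Cox6a1 window held 32 CG dinucleotides, 3 NRF1 matches, 1 ETS match and 1 CCAAT box. The window of Cox7b2 also held 10 CG dinucleotides, 3 CCAAT boxes and no other match. Its signal was within the range of the bacterial controls, so its difference of -0.07 says little about these motifs. The windows of Cox5a, Cox5b and Cox7a2, which were not called, held none of the 5 motifs. A part of the motifs in the Cox6b2 result was not tested.

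Windows were found for 71 of the 86 members, 76 windows in all. The NRF1 motif was in 26.3% of them, beside 6.25% of all 32851 windows in the table. The ETS motif was in 25% (all windows: 8.86%), the YY1 motif in 11.8% (2.38%) and the estrogen-related receptor motif in 3.95% (1.28%). The CCAAT box was about as common in members (40.8%) as in all windows (37.4%). Members had a median of 19.5 CG dinucleotides per window and all windows 7, so base composition differs along with these shares. Among complex V windows 7 of 18 held the NRF1 motif, and among complex IV windows 1 of 11, that of Cox6a1. A match describes the letters in a window and is not evidence of binding.

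Among the other complex IV isoforms, the general forms were level and the restricted forms scattered. The 8 complex IV genes with a mean signal of 10 or above ranged from -0.05 (Cox6c) to 0.0006 (Cox6a1). Cox4i1, the general form of subunit 4, gave 12.45 and 12.46 in WT and 12.44 and 12.45 in LKO. Cox7a2, the general form of subunit 7A, gave 12.40 and 12.43, then 12.42 and 12.39. Cox8a, the general form of subunit 8, gave 11.36 and 11.25, then 11.29 and 11.23. Cox5b, which has no restricted form in the prefixes, gave 13.11 and 13.04, then 13.10 and 13.00. Within each of these 4 genes the groups overlapped. Of the 8 bright genes, 2 had both LKO arrays below both WT arrays (all genes: 19.6%), Cox5a (-0.02) and Cox6c (-0.05). None had both above (all genes: 22.8%). Over the 16 complex IV genes the counts were 5 below and 3 above.

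Restricted isoforms had dim probe sets, and apart from Cox6b2 none of them passed the test. Cox7a1, the heart and muscle form of subunit 7A, gave 3.94 and 4.35 in WT and 4.66 and 4.75 in LKO, a difference of 0.57 ± 0.17 (limma, Benjamini-Hochberg adjusted p = 0.375). The groups did not overlap, but leaving out 1 array moved the difference between 0.36 and 0.77. Cox6a2, the heart and muscle form of subunit 6A, lay the other way at 5.33 and 5.17 in WT and 4.76 and 4.97 in LKO, a difference of -0.39 ± 0.14 (adjusted p = 0.449, same test). Its other probe set differed by -0.09. The 2 muscle forms thus had differences of opposite sign, and neither was called.

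Cox8c, the testis form of subunit 8, gave 6.77 and 6.33 in WT and 6.25 and 6.20 in LKO. Its difference of -0.32 ± 0.18 (limma, Benjamini-Hochberg adjusted p = 0.570) ranged from -0.55 without WT replicate 2 to -0.10 without WT replicate 1. Cox4i2, the oxygen-responsive form of subunit 4, gave 4.07 and 3.79, then 3.73 and 3.67. Cox8b, the muscle form of subunit 8, gave 3.55 and 3.38, then 3.38 and 3.59, and Cox7b2, the testis form of subunit 7B, 2.28 and 2.08, then 2.03 and 2.18. The last pair overlapped between groups, and the Cox7b2 signal was within the range of the bacterial controls. Testis forms therefore gave differences of 1.68 (Cox6b2), -0.32 (Cox8c) and -0.07 (Cox7b2).

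Cox7c, a small general subunit, was represented by dim probe sets, and its values carry a large error. They were 4.17 and 4.79 in WT and 4.81 and 4.95 in LKO, a difference of 0.40 ± 0.22 (limma, Benjamini-Hochberg adjusted p = 0.572), which was 0.09 when WT replicate 1 was left out. Ndufa4, first described as a complex I subunit and now placed in complex IV, gave 12.31 and 12.40 in WT and 12.46 and 12.49 in LKO, a difference of 0.12 ± 0.12. Its paralog Ndufa4l2, induced by hypoxia, gave 5.04 and 5.03, then 5.12 and 5.0. Cox7a2l, which joins complexes III and IV into supercomplexes, gave 9.87 on both WT arrays and 9.97 and 10.00 in LKO, a difference of 0.11 ± 0.11. None of these 4 genes was called.

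**Figure D2:**
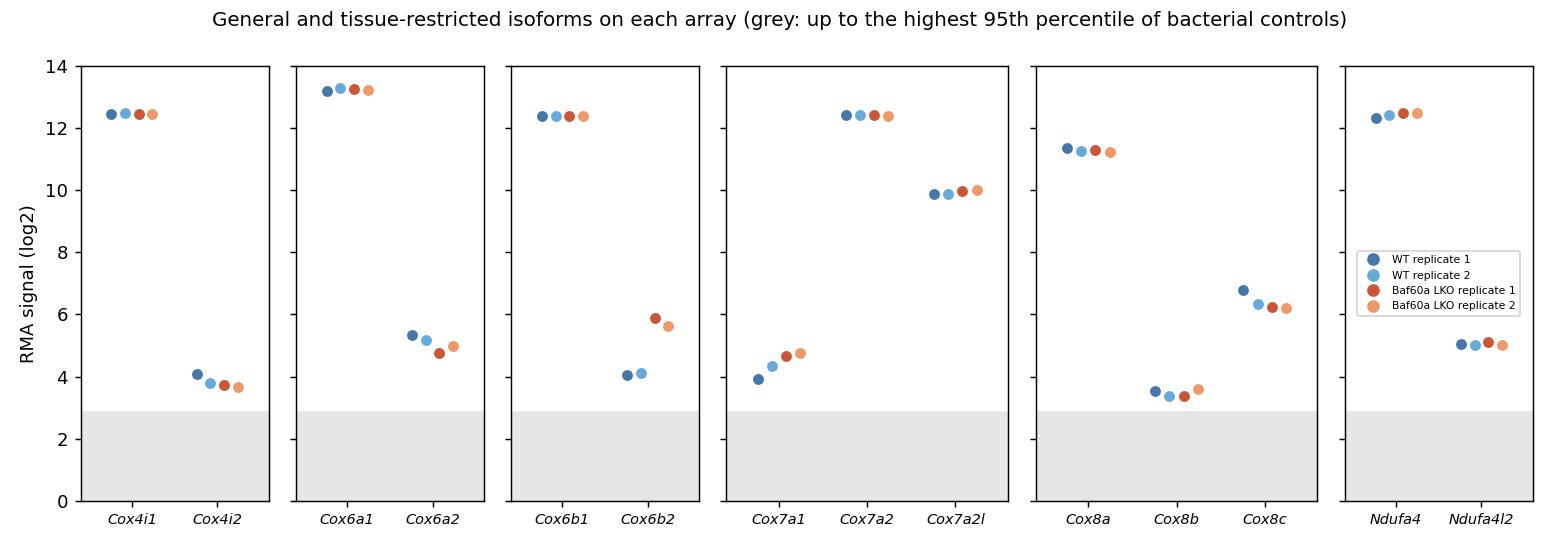
Log2 RMA signal (vertical axis) of general and restricted isoforms on each of the 4 arrays; 1 point is 1 array, each panel is 1 subunit family, and the grey area reaches the highest 95th percentile of the bacterial controls (2.86). Signals of different genes come from different probes and are not comparable; within genes, the Cox6b2 points separate by genotype (4.06 and 4.11 against 5.90 and 5.62) while Cox6b1 stays at 12.37 to 12.38.

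Complex I, which oxidises NADH, had 32 subunits measured and none called. Its median difference was 0.01, which became -0.01 after quantile normalization and -0.02 after cyclic loess, and single genes ranged from -0.27 to 0.18. Both LKO arrays lay above both WT arrays for 9 subunits (all genes: 22.8%) and below for 7 (all genes: 19.6%), shares near those of all genes. The 6 core subunits that carry out the reaction had a median of 0.02 and the 26 accessory subunits 0.01. By name, the medians were 0.03 (12 Ndufa), 0.0063 (11 Ndufb), -0.05 (6 Ndufs) and 0.07 (3 Ndufv). For 30 of the 32 the confidence interval lay within 0.5 on either side of 0.

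Ndufa6, an accessory subunit, gave 11.53 and 11.64 in WT and 11.74 and 11.77 in LKO, a difference of 0.17 ± 0.12 (limma, Benjamini-Hochberg adjusted p = 0.637). Ndufs8, a core subunit that binds iron-sulfur clusters, gave 11.45 and 11.35, then 11.54 and 11.46, a difference of 0.10. Ndufs1, the largest core subunit and also an iron-sulfur protein, gave 10.53 and 10.47, then 10.44 and 10.35, a difference of -0.10. Core subunits thus differed in both directions by similar amounts, close to their SE of 0.12. Ndufa7, an accessory subunit, gave 11.32 and 11.27, then 11.17 and 11.13, a difference of -0.14 with no overlap between the groups.

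Ndufs4, an accessory subunit needed for a stable complex, showed how far probe sets of a gene can disagree. Its brightest probe set gave 9.89 and 9.96 in WT and 9.72 and 9.78 in LKO, a difference of -0.17 ± 0.11 (limma, Benjamini-Hochberg adjusted p = 0.631), while its other 3 differed by -0.03, 0.24 and 0.03. Ndufb4 gave 3.64 and 3.5, then 3.18 and 3.43, and Ndufb1 5.14 and 5.49, then 5.60 and 5.39. Their differences, -0.27 and 0.18, are the ends of the complex I range and come from dim probe sets. Without 1 array they ranged from -0.40 to -0.15 for Ndufb4 and from 0.0018 (without WT replicate 1) to 0.35 for Ndufb1.

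Complex II was represented by 2 genes with differences of opposite sign. Sdhb, the iron-sulfur subunit, gave 11.76 on both WT arrays and 11.60 and 11.61 on the LKO arrays, a difference of -0.15 ± 0.11 (limma, Benjamini-Hochberg adjusted p = 0.658). Sdhd, a membrane anchor, gave 10.56 and 10.58 in WT and 10.64 and 10.66 in LKO, a difference of 0.08 ± 0.11. In both genes replicate arrays lay closer to each other than to those of the other genotype, and neither passed the test.

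Complex III had 8 subunits measured, none called, with a median difference of -0.03 that became 0.0022 when array medians were subtracted. Uqcrc1, a core protein, gave 11.25 and 11.21 in WT and 11.05 and 11.06 in LKO, a difference of -0.17 ± 0.11 (limma, Benjamini-Hochberg adjusted p = 0.622). Uqcrfs1, the Rieske iron-sulfur protein, gave 11.82 and 11.83, then 11.73 and 11.72, a difference of -0.10. Uqcr11 gave 11.75 on both WT arrays, then 11.69 and 11.64, a difference of -0.09. In these 3 small differences both LKO arrays lay below both WT arrays (all genes: 19.6%).

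The remaining complex III genes differed by less. Uqcrh, the hinge protein, gave 11.54 and 11.51 in WT and 11.57 and 11.62 in LKO. Uqcrc2, the other core protein, gave 10.98 and 11.08, then 11.09 and 11.04, and Uqcrb 13.28 and 13.19, then 13.27 and 13.24. Uqcr10 gave 11.58 and 11.46, then 11.61 and 11.52, a difference of 0.05, while its other 2 probe sets differed by -0.12 and -0.29. Uqcrh was the 1 gene of complex III with both LKO arrays above both WT arrays (all genes: 22.8%), and Uqcrq, a ubiquinone-binding subunit, differed by -0.08. All 8 confidence intervals lay within 0.5 on either side of 0.

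Complex V, the ATP synthase, had no gene past the threshold. Of its 17 subunits 12 had a positive difference, and the median was 0.07, positive under every scaling tried (0.04 to 0.11). It was 0.03 without WT replicate 1 and 0.04 without LKO replicate 2. Both LKO arrays lay above both WT arrays for 6 subunits (all genes: 22.8%) and below for 2 (all genes: 19.6%). The 5 subunits of the F1 catalytic part had a median of 0.05, the 3 genes of the c-ring 0.11 and the 9 of the stalk and membrane part 0.07. The median over all 1144 genes with a mean of 10 or above was 0.04.

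The 3 c-ring genes encode the same mature proton-carrying subunit. Atp5g1 gave 11.23 and 11.21 in WT and 11.37 and 11.36 in LKO, a difference of 0.15 ± 0.11 (limma, Benjamini-Hochberg adjusted p = 0.673). Atp5g2 gave 11.14 and 11.06, then 11.30 and 11.13, and Atp5g3 12.85 and 12.84, then 12.86 and 12.87. The values of Atp5g1 separated by genotype by more than the replicates differed, and those of Atp5g2 overlapped.

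Atp5pb, subunit b of the peripheral stalk, had the largest positive difference of the complex, 0.18 ± 0.15 (limma, Benjamini-Hochberg adjusted p = 0.704). Its arrays overlapped, at 11.07 and 11.36 in WT and 11.30 and 11.48 in LKO, and the difference ranged from 0.03 to 0.33 when 1 array was left out. Atp5l, subunit g, gave 11.11 and 11.29, then 11.24 and 11.41. In both genes replicate 1 was the lower array of its genotype. The F1 subunits Atp5e and Atp5d differed by 0.11 and -0.03. Atp5md, a small membrane subunit, gave 10.85 and 10.90, then 10.79 and 10.74, a difference of -0.11, and Atp5k, subunit e, differed by -0.05.

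The complexes were also compared array by array. Each subunit was set to its own mean over the 4 arrays, and the median was taken within a complex. For complex V these medians were -0.03 and 0.0079 in WT and 0.0098 and 0.02 in LKO. For complex III they were 0.04 on both WT arrays and 0.0033 and -0.04 in LKO. For complex II, which is 2 genes of opposite sign, they were 0.01 and 0.03, then -0.03 and -0.0077. The medians of these 3 complexes did not overlap between genotypes, but those of complex V nearly touched. The complex III difference changed sign with array medians subtracted (0.0022), a setting that moved the median of all genes to 0.03. Complex I (-0.01 and 0.0023, then 0.03 and -0.02) and complex IV (0.03 and -0.01, then -0.0042 and -0.0097) overlapped.

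**Figure D3:**
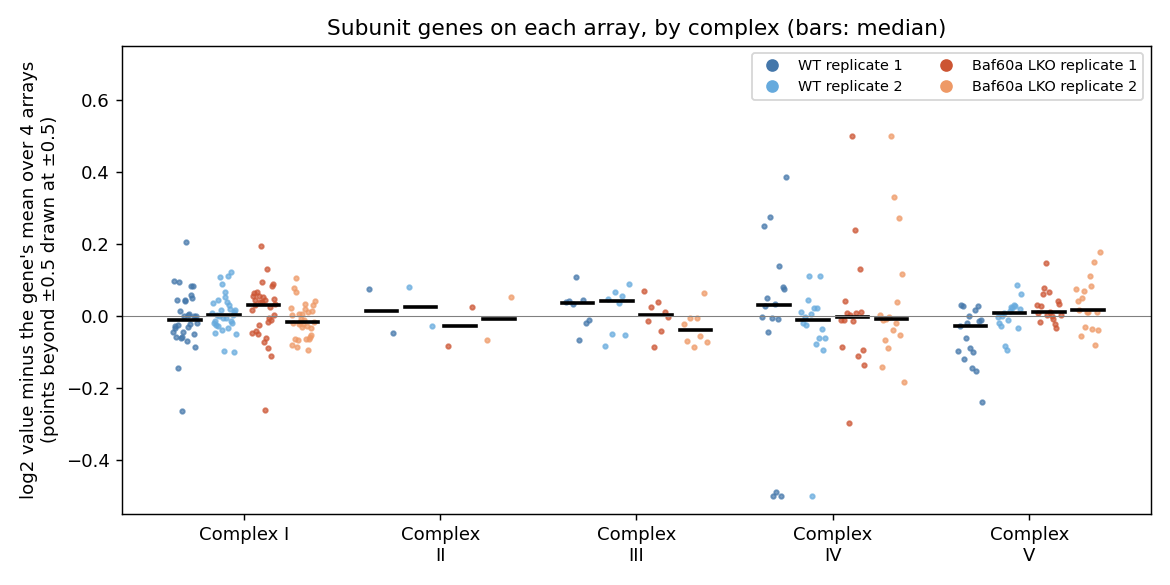
Signal of each subunit gene on each array minus the gene's mean over the 4 arrays (log2, vertical axis), by complex; 1 point is 1 gene, bars are medians, and points beyond 0.5 on either side are drawn at the edge. The bars of all complexes stay between -0.04 and 0.04, and the points at the edge belong to complex IV.

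The 8 Ndufaf assembly factors, which help build complex I and are not part of it, had a median difference of 0.06 and none was called. Ndufaf7, a methyltransferase that acts on a core subunit, gave 6.95 and 7.10 in WT and 7.31 and 7.39 in LKO, a difference of 0.33 ± 0.12 (limma, Benjamini-Hochberg adjusted p = 0.472). Ndufaf2 differed by 0.27 and Ndufaf3 by -0.10. Both LKO arrays lay above both WT arrays for 3 of the 8 and below for none (all genes: 22.8% and 19.6%).

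Of the further mitochondrial genes outside the prefixes, 1 carrier gene passed the test. Of 7 remaining subunits and cytochrome c none was called, and the median difference was 0.07. Ndufc1, a complex I subunit, differed by 0.31 and Sdha, the catalytic subunit of complex II, by -0.18. The only mitochondrially encoded gene measured, ND5 of complex I, gave 13.30 and 13.25 in WT and 13.27 and 13.33 in LKO. Nuclear and mitochondrial subunits of complex I can thus be compared in 1 gene only, whose groups overlapped.

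Slc25a4, which encodes the heart and muscle form of the ADP/ATP carrier that exports ATP from mitochondria, rose. It gave 6.87 and 6.99 in WT and 8.71 and 8.39 in LKO, a difference of 1.62 ± 0.15 (limma, Benjamini-Hochberg adjusted p = 0.0253). Its adjusted p was between 0.114 and 0.279 when any of the 4 arrays was left out, with differences of 1.46 to 1.78. The proliferation-linked and general form, Slc25a5, gave 12.80 and 12.74, then 12.69 and 12.67, a difference of -0.09. As with Cox6b2 and Cox6b1, the restricted gene of this pair rose and the general one was not called. No other restricted complex IV isoform passed the test. Cox7a1 differed by 0.57 and Cox8b by 0.02, but Cox6a2 by -0.39, Cox8c by -0.32, Cox4i2 by -0.23 and Cox7b2 by -0.07. Slc25a31, another carrier gene, had a signal within the range of the bacterial controls and differed by 0.10. The cholangiocyte marker sums were higher on the same arrays as Slc25a4 (7.55 to 8.01 against 6.72 to 7.04), and their part in its rise was not tested. The other 8 of 9 carrier and uncoupling genes were not called, and Ucp1, the uncoupling protein of brown fat, differed by -0.41 ± 0.23, and by -0.09 without WT replicate 1.

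Of 41 assembly and related factors outside the prefixes, Atpif1 among them, none was called. Their absolute difference was above 0.2 for 17 (all genes: 35.5%), with a median of 0.17 beside 0.07 for the members and 0.14 for all genes. The levels differ, with a median signal of 8.45 for these factors and 11.24 for the members. The 21 members under 10 also had a median absolute difference of 0.17. The median signed difference of the 41 was 0.08, with both LKO arrays above both WT arrays for 18 and below for 6 (all genes: 22.8% and 19.6%). With each gene set to its own mean, the list medians were -0.12 and 0.03 in WT and 0.06 and 0.04 in LKO. WT replicate 2 thus lay near the LKO arrays, and WT replicate 1 lay below the other arrays. Atpif1, the inhibitor of ATP synthase hydrolysis, gave 6.89 and 7.53 in WT and 8.04 and 8.06 in LKO, a difference of 0.84 ± 0.22 (limma, Benjamini-Hochberg adjusted p = 0.330). The mean of its probe sets differed by 0.30, and leaving out 1 array moved the difference between 0.52 and 1.16. Sco2, a copper chaperone for complex IV, gave 9.61 and 9.49, then 9.24 and 9.0, a difference of -0.43 ± 0.14.

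Of 21 regulators of respiratory genes none was called, the median was 0.04, and 7 exceeded 0.2 in absolute difference. With each gene set to its own mean, the list medians were -0.14 and 0.03 in WT and 0.02 and 0.04 in LKO, so WT replicate 1 stood apart. Ppargc1a, the coactivator that drives mitochondrial biogenesis, gave 7.22 and 7.54 in WT and 7.58 and 7.79 in LKO, a difference of 0.31 ± 0.16 (limma, Benjamini-Hochberg adjusted p = 0.562). Its groups did not overlap, and the difference was 0.14 without WT replicate 1 and 0.47 without WT replicate 2. Its partner Esrra differed by 0.20, Nrf1 by 0.03, Gabpa by 0.15 and Tfam, the mitochondrial DNA packaging factor, by -0.02. The ends of the list were Tfb1m, a mitochondrial ribosomal RNA methyltransferase, at 0.45, and Myc at -0.65 ± 0.36. The Myc value rested on LKO replicate 2, at 5.10 beside 6.41, 6.19 and 6.21 on the other arrays, and was -0.09 without it.

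The list for the TCA cycle, which supplies NADH and succinate to the chain, had 17 genes measured, a median of 0.0004 and none called. It includes Pdha1, Pdhb, Dlat and Pcx, which act on pyruvate before the cycle. Differences were positive for 9 and negative for 8. Both LKO arrays lay above both WT arrays for 2 and below for 6 (all genes: 22.8% and 19.6%). An unadjusted limma p under 0.05 was reached by 3 (all genes: 10.2%), Pdha1, Cs (-0.35) and Idh2 (-0.30), all with negative differences. Pdha1, of the pyruvate dehydrogenase complex, gave 10.42 and 10.39 in WT and 9.94 and 9.86 in LKO. Its difference of -0.51 ± 0.11 had a Benjamini-Hochberg adjusted p of 0.239 in limma and of 0.0369 with limma's trended and robust variance. The groups were separate by more than the replicates differed. Fh1, fumarase, had the largest positive difference of the list, 0.22.

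**Figure D4:**
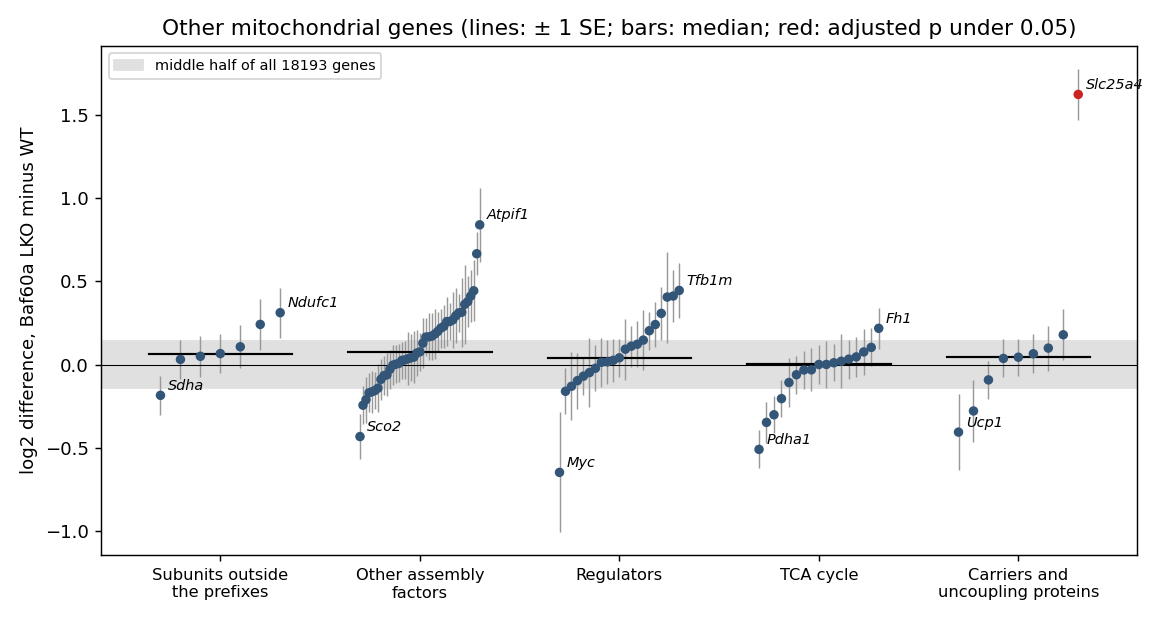
Log2 difference (Baf60a LKO minus WT, vertical axis) of genes in 5 lists outside the prefixes, ordered by value; points are limma estimates with 1 SE, bars are list medians and the grey band is the quartile range of all genes. Slc25a4, at 1.62, is the 1 gene past the threshold, and the list medians lie between 0.0004 and 0.08.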

How the data were processed

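The deposited values are log2 signals, 1 per probe set and array, and the submitters' processing notes name RMA, affy and limma without versions. RMA (background correction, quantile normalization and a summary over probes) compresses differences of dim genes. An array gives no read depth, and with 2 arrays per group the number of arrays limits precision. Detection calls were not used here.

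Of 45101 probe sets 64 controls were left out. The platform annotation gave 1 symbol to 34945, several to 932, and did not list 9160. Symbols were updated by Entrez number to RefSeq (GRCm38.p6), with 34741 matched and 204 kept. A gene was represented by its brightest probe set (mean of 4 arrays), with no filter on level. The 10 probe sets that list a gene with these prefixes together with other genes were not used.

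Differences were tested with limma 3.58.1 in R 4.3.3 (lmFit, then default eBayes; 2-sided). P-values were adjusted over 18193 genes by the Benjamini-Hochberg method, on 2 residual and 3.54 prior degrees of freedom. The fit was tested on simulated data. The members and gene lists were chosen with earlier results of these data known. Named genes are members past the threshold, the 3 highest and 3 lowest differences in a complex, isoforms, the called and extreme genes of each further list with 5 regulators, the brightest and dimmest members, and Smarcd1. Alternatives covered normalization, a level filter, the choice of probe sets, the variance model, replicate number and leaving out each array. Figures used matplotlib 3.10.9 in Python 3.11.15.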

Additional observations from a re-analysis of the deposited data

How the results depend on the processing

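With 2 pools per genotype the precision is low, and the signal over background of the restricted isoforms is small. Over all genes 88 were called as reported, 142 after cyclic loess, 154 with array medians subtracted, 216 with trended and robust variances and 19 with a replicate block, against 0 to 17 when 1 array was left out. Without WT replicate 1 no gene was called by limma (1630 at an unadjusted p under 0.05). The count of called members, 1, was 0 with the replicate block (Cox6b2 adjusted p = 0.0804, Slc25a4 0.113), 0 when any 1 of the 4 arrays was left out, and 0 in the brighter 50% of genes, where Cox6b2 was not included. The block assumes that pools of the same number were made together, which the labels do not say, and the deviations of same-numbered arrays correlated at 0.143 over all genes. Under the other alternatives Cox6b2 differed by 1.66 to 1.71.

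The median difference of the 75 subunits, 0.0063, was -0.011 after quantile normalization, -0.014 after cyclic loess, 0.039 with array medians subtracted, 0.018 with all probe sets of a gene averaged, and -0.00038 to 0.031 without 1 array. In the order quantile, loess and array medians, complex I gave -0.014, -0.022 and 0.047, complex II -0.053, -0.078 and -0.0050, complex III -0.055, -0.053 and 0.0022, and complex V 0.039, 0.050 and 0.11. Complex IV gave 0.015 with array medians subtracted. That setting moves the difference of every gene by the same amount. For all genes the median was -0.014 after quantile normalization, -0.014 after cyclic loess and 0.033 with array medians subtracted. Complex V gave 0.096 with probe sets averaged. Without probe sets named _x_at and _s_at complex III gave -0.0014 and complex V 0.049. Without 1 array the medians ranged from -0.054 to -0.0047 (III), -0.049 to -0.0069 (IV) and 0.030 to 0.076 (V).

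Changes of sign among the named genes were found only in differences that were not called. After quantile normalization Atp5g3 was -0.0081, Cox6a1 -0.037, Cox6b1 -0.027, Ndufa4l2 -0.015, Nrf1 -0.063 and Uqcrb -0.011. After cyclic loess Cox6b1 was -0.017, Ndufa4l2 -0.0067, Nrf1 -0.046 and Uqcrc2 -0.0097. With array medians subtracted Atp5d was 0.0045, Cox4i1 0.025, Cox5b 0.0073, Cox7a2 0.020 and Tfam 0.011. With probe sets averaged Ndufs4 was 0.016, Nrf1 -0.0027, Tfam 0.0018 and Uqcr10 -0.12. Without probe sets named _x_at and _s_at Cox5b was 0.042.

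Without 1 array the differences ranged from -0.071 to 0.014 (Atp5d), -0.080 to 0.029 (Cox5b), -0.044 to 0.045 (Cox6a1), -0.0058 to 0.0062 (Cox6b1), -0.028 to 0.0025 (Cox7a2), -0.18 to 0.026 (Cox7b2), -0.10 to 0.013 (Cox8a), -0.086 to 0.13 (Cox8b), -0.074 to 0.37 (Gabpa), -0.0030 to 0.059 (ND5), -0.032 to 0.083 (Ndufa4l2), -0.21 to 0.0099 (Ndufaf3), -0.052 to 0.10 (Nrf1), -0.16 to 0.11 (Tfam), -0.016 to 0.11 (Uqcr10), -0.024 to 0.059 (Uqcrb) and -0.019 to 0.085 (Uqcrc2). Apart from the common shift with array medians subtracted, the cause of these changes was not tested.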

Other observations

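Further genes from the same lists, chosen after their values were seen, are given as values only, since none passed the threshold. Cox20, an assembly factor of complex IV, gave 9.30 and 9.44 in WT and 9.95 and 10.12 in Baf60a LKO, a difference of 0.67 ± 0.13 (limma, Benjamini-Hochberg adjusted p = 0.181). Citrate synthase, encoded by Cs, gave 9.14 and 9.27 in WT and 8.90 and 8.82 in LKO, a difference of -0.35 ± 0.12 (adjusted p = 0.441, same test). Idh2, the mitochondrial NADP-dependent isocitrate dehydrogenase, gave 10.03 on both WT arrays and 9.72 and 9.73 in LKO, a difference of -0.30 ± 0.11 (adjusted p = 0.466, same test). In each of the 3 genes, picked by their values, the groups did not overlap (all genes: 22.8% with LKO above and 19.6% with LKO below).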
